A study of Mus musculus with 22 samples.

Results

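Mutations in human SOD1, TARDBP, OPTN, TBK1, SQSTM1, VCP, UBQLN2, PFN1 and KIF5A are known causes or risk factors of amyotrophic lateral sclerosis (ALS), and the mouse orthologs of these 9 genes were followed through the spinal cord RNA-seq of the study. They were chosen by name, as Sod1, Tardbp, Optn, Tbk1, Sqstm1, Vcp, Ubqln2, Pfn1 and Kif5a, and all 9 were found among the 21995 genes of the count table. The study holds 22 libraries of whole spinal cord, 1 from each mouse, all on the C57BL/6 strain and in 4 groups. The aging comparison set 8 old wild-type mice (18 to 24 months) against 8 young wild-type mice (3 to 4 months), all male, in libraries made with the Roche KAPA Hyperprep kit. The ALS comparison set 3 symptomatic SOD1 G93A mice against 3 wild-type control mice (both 5 to 6 months, 2 females and 1 male in each group), in libraries made with the Illumina TruSeq kit. SOD1 G93A mice carry a human SOD1 transgene with the G93A substitution in many copies beside their own intact Sod1 gene, so they model SOD1 overexpression as well as the mutation, and none of the other 8 orthologs is altered in them. The labels give the sex of no library, so sex was not a term in any test.

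ALS is the progressive loss of upper and lower motor neurons, and its genes fall into a few roles. SOD1 is the copper and zinc enzyme that turns superoxide into peroxide in the cytosol. TARDBP encodes TDP-43, a nuclear RNA-binding protein that leaves the nucleus and aggregates in most patients. SQSTM1 (p62) and OPTN (optineurin) are receptors that bring ubiquitinated cargo to the autophagosome, and the kinase TBK1 phosphorylates both. VCP is an ATPase that pulls ubiquitinated proteins out of complexes and membranes, and UBQLN2 (ubiquilin 2) carries such proteins to the proteasome. PFN1 (profilin 1) supplies actin monomers for filament growth, and KIF5A is a neuronal heavy chain of kinesin-1, the motor of fast anterograde axonal transport. As the tissue was bulk spinal cord, fewer cells of a type and less RNA per cell cannot be told apart in any value below.

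Total counts were 5078092 to 9358055 in young, 5664869 to 9145600 in old, 10693060 to 13219797 in control and 9675610 to 11872431 in SOD1 G93A libraries, and every member was well above the count floor, with 152 counts as the lowest value of any member (Optn in a young library). Values are CPM (counts scaled to a common library size, so that libraries can be set side by side), with library sizes adjusted by the TMM method. Libraries are named by a letter in the order of the table columns, since the columns carry no replicate number. Markers of central nervous system cells were present in every library, and those of skeletal muscle and T cells were near 0, at no more than 3.36 and 2.02 summed CPM. The sums of some cell type markers differed between groups, while those of oligodendrocytes and endothelium overlapped in both comparisons. The summed CPM of 8 microglial markers was 328.5 to 363.6 in young, 507.8 to 835.1 in old, 333.7 to 405.4 in control and 1235 to 2188 in SOD1 G93A libraries. The summed CPM of 7 neuronal markers was 7048 to 8135 in young, 5972 to 8080 in old, 8255 to 8790 in control and 3229 to 5366 in SOD1 G93A libraries. The 6 motor neuron markers summed to 225.6 to 270.5 CPM in young and 217.7 to 271.3 CPM in old libraries, and to 248.7 to 280.8 CPM in control and 136.3 to 150.8 CPM in SOD1 G93A libraries. The 6 astrocyte markers summed to 5631 to 6203 CPM in young and 6535 to 7231 CPM in old libraries, and to 5239 to 5777 CPM in control and 10820 to 17300 CPM in SOD1 G93A libraries. Single markers did not all follow these sums. In old mice, at an adjusted p under 0.05 (edgeR), 1 neuronal marker rose and 2 fell. By the same rule 3 astrocyte markers rose and 1 fell, and 0 motor neuron markers changed. In SOD1 G93A mice 6 neuronal and 4 motor neuron markers fell and 5 astrocyte markers rose, with 0 the other way. Old library F and SOD1 G93A library B held the least microglial and the most neuronal marker RNA of their groups. The part of these cell shares in the changes of the members was not tested. Schwann cell markers reached 55.86 summed CPM in old library E and 101.4 in SOD1 G93A library A, against 0.0 to 9.602 in all others of the 22.

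In old mice 5 of the 9 orthologs changed (55.6%) and in SOD1 G93A mice 4 did (44.4%), with Sod1 and Pfn1 higher and Kif5a lower in both. The Sod1 value in SOD1 G93A mice may hold reads of the human transgene, so it is not that of the mouse ortholog only. A gene is called changed at a Benjamini-Hochberg adjusted p under 0.05 in edgeR's quasi-likelihood test over all genes tested; these are the adjusted p-values given throughout. In old mice Sod1, Sqstm1 and Pfn1 rose and Tardbp and Kif5a fell, where 26.4% of the 13647 genes tested were called, 13.5% higher and 12.9% lower. In SOD1 G93A mice Sod1 and Pfn1 rose and Kif5a and Ubqln2 fell, where 33.9% of the 14386 genes tested were called, 18.4% higher and 15.5% lower. Optn, Tbk1 and Vcp were called in neither comparison. The called changes in old mice were small, with log2 values of -0.32 to 0.34. Those in SOD1 G93A mice were larger, at 0.95 for Sod1, 0.74 for Pfn1, -0.83 for Kif5a and -0.37 for Ubqln2. No member passed the study's own threshold, which adds a log2 fold change beyond 1 and was met by 2.22% of genes in aging and 9.7% in ALS, and the count was also 0 at an unadjusted p under 0.05 in edgeR and in DESeq2. In ALS, Kif5a passed it without SOD1 G93A library B, at -1.02, and Sod1 in the FPKM values, at 1.001 (limma). The median log2 fold change of the 9 members was -0.01 in aging and -0.00 in ALS, beside -0.00 and 0.00 over all genes tested. Some members rose and others fell, so these medians do not measure the size of the changes. In aging the groups did not overlap for 1 member, Pfn1, where 5.33% of all genes did not overlap. In ALS they did not overlap for 5 members, where 50.4% of all genes did not, a share near that of the members. An exact two-sided permutation test, whose smallest possible p is 0.000155 for 8 against 8 mice, gave a p under 0.05 for the same 5 members as edgeR in aging. With 3 against 3 mice it cannot go below 0.1.

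**Figure D1:**
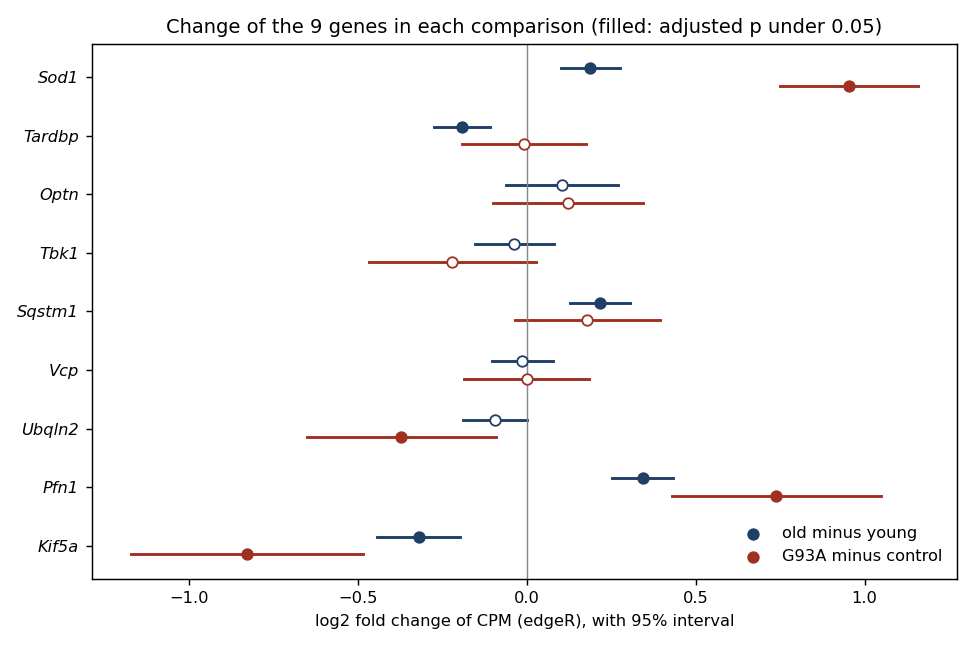
Log2 fold change of CPM for each of the 9 genes (horizontal axis, edgeR) with its 95% interval as a line, for old minus young (blue) and SOD1 G93A minus control (red). Filled points have an adjusted p under 0.05. Sod1 and Pfn1 lie to the right of 0 and Kif5a to the left of 0 in both comparisons, and the intervals of Optn, Tbk1 and Vcp include 0 in both. The Sod1 value in SOD1 G93A mice may hold transgene reads.

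Since Sod1, Sqstm1 and Pfn1 were the members that rose together in old mice, their promoters are shown, as the 250 bases before and 50 bases after the RefSeq start of the gene on GRCm38.p6, 5′ to 3′ on the strand of the gene. Capitals mark matches on either strand to the antioxidant response element core TGACNNNGC, the E-box CACGTG and the heat shock element core GAANNTTC, none of which overlap here. The windows are chr16:90220512-90220811 (plus strand) for Sod1, chr11:50210771-50211070 (minus strand) for Sqstm1 and chr11:70654601-70654900 (minus strand) for Pfn1.
Sod1: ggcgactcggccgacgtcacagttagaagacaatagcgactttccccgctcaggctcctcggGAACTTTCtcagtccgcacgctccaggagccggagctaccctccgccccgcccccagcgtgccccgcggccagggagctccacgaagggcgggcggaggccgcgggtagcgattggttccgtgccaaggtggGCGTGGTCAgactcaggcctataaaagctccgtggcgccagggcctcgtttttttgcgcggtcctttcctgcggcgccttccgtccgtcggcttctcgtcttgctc
Sqstm1: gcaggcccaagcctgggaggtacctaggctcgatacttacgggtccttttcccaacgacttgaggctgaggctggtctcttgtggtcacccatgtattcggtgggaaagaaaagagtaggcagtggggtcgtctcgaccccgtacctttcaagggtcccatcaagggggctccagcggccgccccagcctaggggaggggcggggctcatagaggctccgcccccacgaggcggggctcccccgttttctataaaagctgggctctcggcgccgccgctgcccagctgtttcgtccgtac
Pfn1: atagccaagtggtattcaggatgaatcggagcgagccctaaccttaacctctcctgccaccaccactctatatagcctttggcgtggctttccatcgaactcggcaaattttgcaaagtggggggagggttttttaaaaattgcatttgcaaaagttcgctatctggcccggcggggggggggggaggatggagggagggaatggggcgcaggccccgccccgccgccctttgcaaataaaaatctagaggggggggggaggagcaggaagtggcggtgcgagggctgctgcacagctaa
Of these 3 promoters only that of Sod1 held matches, an antioxidant response element core at bases -56 to -48 and a heat shock element core at -188 to -181 from the start. Over the 32851 promoters of the RefSeq table, 12.4% held the antioxidant response element core, 7.15% the E-box and 7.86% the heat shock element core. GC content was 66.7% for Sod1, 63.3% for Sqstm1 and 57% for Pfn1, against a median of 52.7%, and they held 34, 20 and 14 CpG dinucleotides, against a median of 7. Of the 9 members 7 had a promoter entry, and Ubqln2 and Kif5a had none. Among the members that did not rise, Vcp held both an antioxidant response element core and a heat shock element core, Tbk1 an E-box, Optn a heat shock element core and Tardbp no match.

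Sod1 (ENSMUSG00000022982, chr16:90220754-90226329, plus strand, GRCm38) showed the largest difference between SOD1 G93A and control mice of the 9 members. The 3 control libraries had 168, 156 and 156 CPM and the 3 SOD1 G93A libraries 298, 296 and 335 CPM. All 3 SOD1 G93A values lay above all control values, with means of 160 ± 6.56 and 310 ± 22.03 CPM (SD, n = 3), a 1.94-fold difference with a log2 fold change of 0.95 ± 0.09 (SE) and an adjusted p of 0.00024. Reads of the human transgene may be counted on mouse Sod1, because the reads were aligned to the mouse genome, so the level in SOD1 G93A mice is not that of the mouse gene only. The part of such reads was not tested. The length that the counts and FPKM values of Sod1 imply was alike in all groups, at 640 to 663 bases. In the aging comparison, which has no transgene, young libraries had 182 to 205 CPM with a median of 191, and old libraries 200 to 235 CPM with a median of 221. The ranges overlapped, with old libraries B and H inside the young range. Sod1 rose in old mice by 1.14-fold, from 192 ± 7.30 to 219 ± 13.8 CPM (SD, n = 8), with a log2 fold change of 0.19 ± 0.04 (SE) and an adjusted p of 0.0019 by edgeR (exact permutation p = 0.00078).

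Neither of the other superoxide dismutases was called higher in either comparison. Sod2, the manganese enzyme of the mitochondrial matrix, fell in SOD1 G93A mice, from 152, 177 and 158 CPM in controls to 95.6, 131 and 92.5 CPM, a log2 fold change of -0.61 ± 0.14 (SE, adjusted p = 0.011), a call lost without control library B or SOD1 G93A library C (adjusted p up to 0.056). In old mice its log2 fold change was -0.09 (adjusted p = 0.11), and Sod3, the extracellular enzyme, was called in neither comparison (log2 fold changes 0.24 and 0.30, adjusted p = 0.074 and 0.19). Per length, the FPKM of Sod1 was 6.30 to 7.38 times that of Sod2 in young and 6.51 to 9.21 times in old libraries (exact permutation p = 0.0016), a ratio chosen after the values were seen. It was 5.52 to 6.89 in control and 14.1 to 22.6 in SOD1 G93A libraries, where the exact permutation p of 0.1 is the smallest that 3 against 3 can give. The Sod1 values of the SOD1 G93A libraries may hold transgene reads. Of 13 genes of superoxide dismutases, SOD1 copper loading and peroxide removal, 5 rose and none fell in old mice, and 4 rose and 1 fell in SOD1 G93A mice (medians 0.14 and 0.30). Among all genes tested 26.4% were called in aging and 33.9% in ALS. Over all 7 lists of related genes, 54 genes were called in ALS, and 22 to 77 when 1 library was left out. Calls over all genes tested also moved between those fits. Those of this list that rose were enzymes of peroxide removal and, in SOD1 G93A mice, the copper importer Slc31a1 (log2 fold change 0.39, adjusted p = 0.018). Glutathione peroxidase Gpx1 rose by 0.66 in old and 1.20 in SOD1 G93A mice on the log2 scale (adjusted p = 6.6e-08 and 0.0013), and peroxiredoxin Prdx6 rose by 0.62 and 2.23 (adjusted p = 1.4e-05 and 0.00039). Gpx4, which reduces lipid peroxides, rose by 0.31 in old mice (adjusted p = 6.4e-06) and had a value of 0.12 in SOD1 G93A mice (adjusted p = 0.36). Prdx6 is an astrocyte-rich gene, and the astrocyte marker sum was higher in both old and SOD1 G93A mice. Of its 6 markers, 3 rose and 1 fell in old mice. Old library F had the least Prdx6 (295 CPM) and the lowest astrocyte marker sum of its group. The part of astrocyte share in the values of Prdx6 was not tested.

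**Figure D2:**
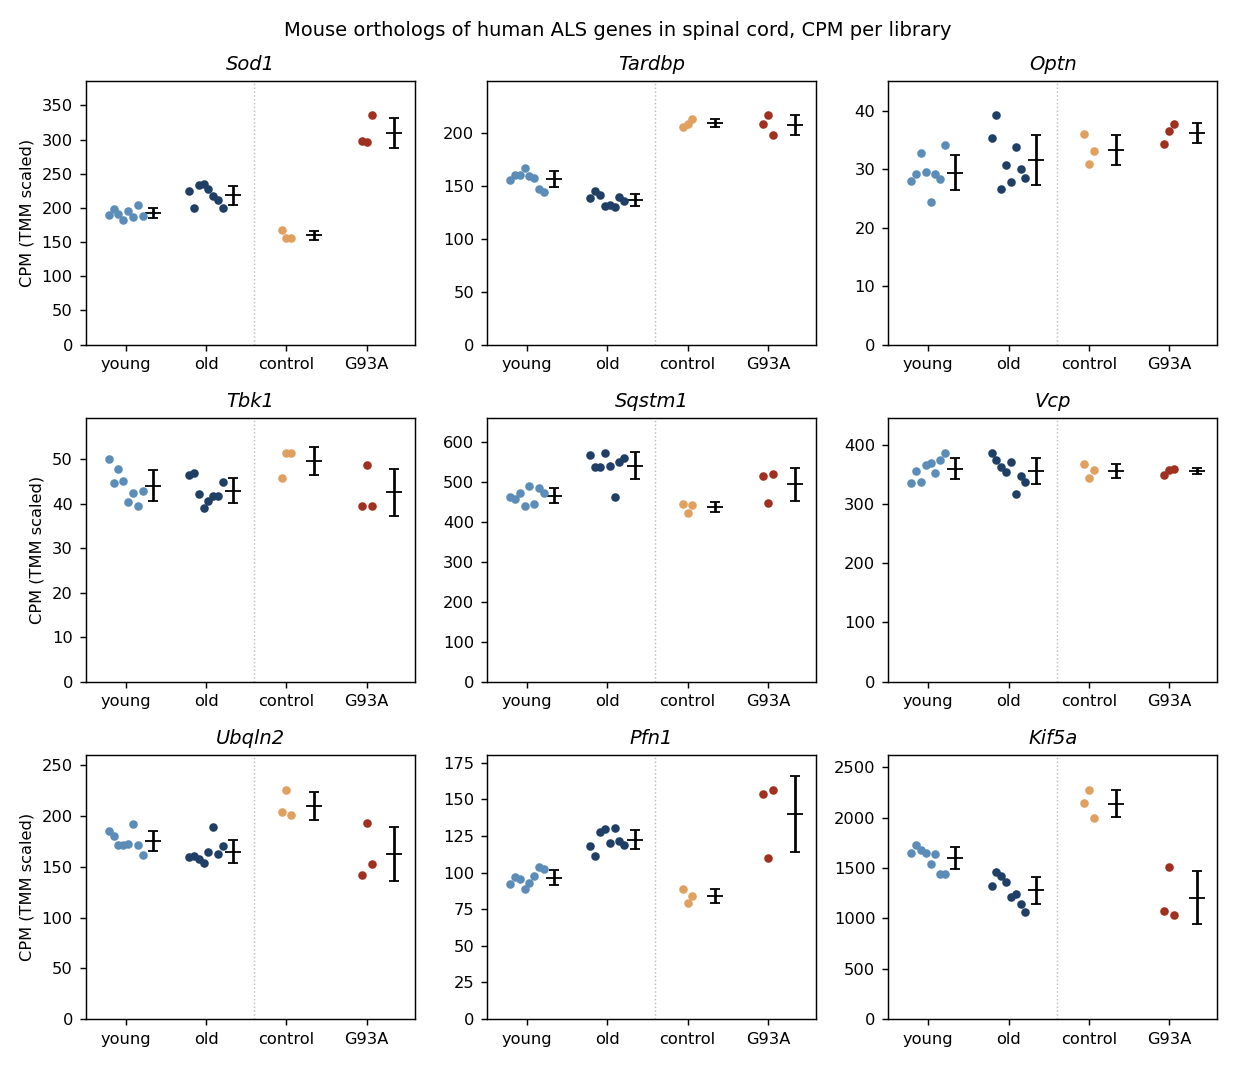
CPM of each of the 9 genes (vertical axes, from 0) in every library, for young and old (8 each) and control and SOD1 G93A mice (3 each, labelled G93A). Bars give the mean and SD of a group, and the dotted line parts the experiments, whose kits differ. The old Pfn1 values lie above all young values, and 1 SOD1 G93A library, B, lies nearest to the controls for Sqstm1, Ubqln2, Pfn1 and Kif5a.

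Tardbp (ENSMUSG00000041459, chr4:148612382-148627019, minus strand) fell in old mice and had nearly equal levels in SOD1 G93A and control mice. Young libraries had 145 to 167 CPM (median 158) and old libraries 130 to 146 CPM (median 137). Only young library H lay inside the old range. The fall was 12.5%, from 157 ± 7.41 to 137 ± 5.67 CPM (SD, n = 8), with a log2 fold change of -0.19 ± 0.04 (SE), an adjusted p of 0.00086 and an exact permutation p of 0.00031. In the ALS comparison the control libraries had 206, 208 and 213 CPM and the SOD1 G93A libraries 209, 217 and 198 CPM, and the groups overlapped. The log2 fold change was -0.01 with a 95% interval of -0.19 to 0.18 (adjusted p = 0.95). The fall in old mice was not called in the deposited FPKM values, at -0.12 (limma, adjusted p = 0.33), and the length implied by counts and FPKM ranged from 1917 to 3304 bases between libraries for Tardbp, by a factor of 1.72. An exon of Masp2 on the other strand overlaps Tardbp, and whether counting used the strand is not stated.

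Of the 26 other ALS genes tested, 8 fell and 3 rose in old mice (median -0.05), and 6 fell and 2 rose in SOD1 G93A mice (median -0.09). The shares called over all genes tested were 26.4% in aging and 33.9% in ALS. The genes that fell in old mice included the RNA-binding proteins Hnrnpa2b1 (-0.22, adjusted p = 0.0014), Matr3 (-0.24, adjusted p = 0.0038), Tia1 (-0.25, adjusted p = 0.0037) and Taf15 (-0.23, adjusted p = 0.013), of which the last 3 were named after their values were seen. Taf15 rose in SOD1 G93A mice, by 0.32 (adjusted p = 0.019), and Hnrnpa2b1 had a value of 0.18 (adjusted p = 0.17). Nek1, a kinase of cilia and DNA repair, fell in both, by 0.35 in old and 0.41 in SOD1 G93A mice on the log2 scale (adjusted p = 0.0013 and 0.015), though in ALS the call was lost without control library B or C or SOD1 G93A library C (adjusted p up to 0.067). The smallest adjusted p in ALS among them was that of Tuba4a, an alpha-tubulin, which fell from 366, 380 and 387 CPM to 172, 259 and 185 CPM (log2 fold change -0.88, adjusted p = 0.0033) and had a value of 0.11 in old mice (adjusted p = 0.063). The ribonuclease Ang rose by 0.65 in old and 2.07 in SOD1 G93A mice (adjusted p = 0.024 and 0.0081), at means of 1.67 to 7.24 CPM, and it belongs to a multigene family whose reads may be split among copies. Its call in aging was lost without young library C or F or old library A or D (adjusted p up to 0.072).

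Sqstm1 (ENSMUSG00000015837, chr11:50199366-50210827, minus strand) was the member of the autophagy group that rose in old mice. Young libraries had 438 to 490 CPM (median 466) and old libraries 461 to 573 CPM (median 545). The old libraries other than F had at least 538 CPM, above all young libraries, and old library F lay inside the young range. The rise was 1.16-fold, from 465 ± 18.3 to 540 ± 34.9 CPM (SD, n = 8), with a log2 fold change of 0.22 ± 0.04 (SE), an adjusted p of 0.00056 and an exact permutation p of 0.00093. In SOD1 G93A mice Sqstm1 had 514, 446 and 520 CPM against 444, 421 and 442 CPM in controls. The groups did not overlap, but the difference was not called, with a log2 fold change of 0.18, a 95% interval of -0.03 to 0.39 and an adjusted p of 0.17. Without SOD1 G93A library B it was 0.25 with an adjusted p of 0.016, and in the FPKM values 0.33 with an adjusted p of 0.039 (limma). Sqstm1 shares exon bases with Mrnip on the other strand, and its implied length differed by a factor of 1.49 between libraries.

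Optn (ENSMUSG00000026672, chr2:5020642-5064051, minus strand) was the lowest of the 9 members and was called in neither comparison. Young libraries had 24.4 to 34.1 CPM (median 29.2) and old libraries 26.6 to 39.2 CPM (median 30.4), which overlapped widely. The log2 fold change in aging was 0.10 with a 95% interval of -0.06 to 0.27 (adjusted p = 0.37). Control libraries had 36.0, 30.8 and 33.0 CPM and SOD1 G93A libraries 34.3, 36.6 and 37.7 CPM, a log2 fold change of 0.12 with an interval of -0.10 to 0.34 (adjusted p = 0.37). The largest change these intervals allow in either comparison is thus a log2 value of 0.34. Optn overlaps the antisense gene 4930551O13Rik.

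Tbk1 (ENSMUSG00000020115, chr10:121546455-121586787, minus strand) was likewise not called. Young libraries had 39.4 to 49.9 CPM (median 43.7) and old libraries 39.1 to 46.8 CPM (median 42.0), with a log2 fold change of -0.04 and an interval of -0.16 to 0.08 (adjusted p = 0.67). In the ALS comparison the controls had 45.8, 51.3 and 51.5 CPM and the SOD1 G93A libraries 39.6, 48.6 and 39.5 CPM. SOD1 G93A libraries A and C lay below all controls and library B inside their range. The log2 fold change was -0.22 with an interval of -0.47 to 0.03 (adjusted p = 0.15), and without library B it was -0.32 with an adjusted p of 0.019.

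Among 28 autophagy receptors, LC3 family members, TBK1 adaptors and initiation factors, 3 rose and 5 fell in old mice (median 0.02), and 2 rose and 6 fell in SOD1 G93A mice (median -0.10). Over all genes tested 26.4% were called in aging and 33.9% in ALS, so these counts do not set the list apart. The ATG8 family member Gabarap rose in both, by 0.28 in old mice (adjusted p = 0.00047) and by 0.60 in SOD1 G93A mice (adjusted p = 0.0064), from 123, 107 and 116 CPM to 184, 147 and 193 CPM. Gabarapl1 rose by 0.18 in old mice (adjusted p = 0.00047) and had a value of -0.18 in SOD1 G93A mice (adjusted p = 0.14). Rb1cc1 (FIP200), the scaffold of the ULK1 complex, fell by 0.47 and 0.50 on the log2 scale (adjusted p = 2.6e-05 and 0.0070). Ikbke, the kinase most closely related to Tbk1, rose in SOD1 G93A mice from a mean of 3.95 to 10.6 CPM (log2 fold change 1.42, adjusted p = 0.0028). There 6 of the 8 microglial markers also rose, and the part of microglial share in the rise of Ikbke was not tested. In old mice the value of Ikbke was 0.23 (adjusted p = 0.30). Of the other receptors, all 4 named after their values were seen, Tax1bp1 and Nbr1 fell by 0.25 and 0.17 in old mice (adjusted p = 0.0016 and 0.0029), and Calcoco1 and Tollip had values of 0.05 and 0.04 (adjusted p = 0.56 and 0.66). In SOD1 G93A mice Tax1bp1 fell by 0.30 (adjusted p = 0.020), and Nbr1, Calcoco1 and Tollip had values of -0.08, 0.14 and -0.07 (adjusted p = 0.49, 0.35 and 0.50).

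Vcp (ENSMUSG00000028452, chr4:42979963-43000507, minus strand) was the member with the least difference in both comparisons. Young libraries had 334 to 386 CPM (median 360) and old libraries 316 to 385 CPM (median 357). The log2 fold change was -0.01 with an interval of -0.10 to 0.08 (adjusted p = 0.85). Controls had 366, 343 and 357 CPM and SOD1 G93A libraries 349, 358 and 359 CPM, a log2 fold change of -0.00 with an interval of -0.19 to 0.18 (adjusted p = 0.99). Changes inside these intervals are not excluded by these values. Vcp shares exon bases with 1700022I11Rik on the other strand.

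Of 24 VCP cofactors, 1 rose and 4 fell in old mice (median 0.03), and 2 rose and 6 fell in SOD1 G93A mice (median -0.01). These counts do not set the list apart either, since 26.4% of all genes were called in aging and 33.9% in ALS. The UBX-domain cofactor Ubxn1 rose in both, by 0.35 (adjusted p = 0.0005) and 0.36 (adjusted p = 0.031), although in ALS its call was lost when any library other than SOD1 G93A library B was left out. Ubxn2a fell in both, by 0.27 in old mice (adjusted p = 0.0032) and by 0.71 in SOD1 G93A mice (adjusted p = 0.0074). Ubxn2b fell by 0.35 in old mice (adjusted p = 0.0019) and by 0.29 in SOD1 G93A mice (adjusted p = 0.048), the latter call lost when any library other than SOD1 G93A library B was left out. Faf1, which brings ubiquitinated substrates to VCP, fell by 0.36 in SOD1 G93A mice (adjusted p = 0.015, up to 0.070 without control library C or SOD1 G93A library C) and had a value of 0.02 in old mice (adjusted p = 0.83).

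Ubqln2 (ENSMUSG00000050148, chrX:153498227-153501570, plus strand) fell in SOD1 G93A mice. Controls had 204, 226 and 201 CPM and SOD1 G93A libraries 142, 193 and 153 CPM. The groups did not overlap, though SOD1 G93A library B was close to the lowest control. The fall was 22.7%, from 210 ± 13.9 to 162 ± 26.9 CPM (SD, n = 3), with a log2 fold change of -0.37 ± 0.12 (SE) and an adjusted p of 0.046. This call was near the threshold: it was lost when any library other than SOD1 G93A library B was left out, with adjusted p-values up to 0.16, and in the FPKM values (limma, adjusted p = 0.090). In aging, young libraries had 162 to 192 CPM (median 172) and old libraries 154 to 190 CPM (median 162), a log2 fold change of -0.09 with an interval of -0.19 to 0.00 (adjusted p = 0.14). Without old library F, at 190 CPM the highest of its group, it was -0.12 with an adjusted p of 0.021. Ubqln2 has 1 annotated transcript.

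Of 6 relatives of Ubqln2 and other shuttle factors tested, 1 fell and none rose in each comparison (medians -0.01 and -0.14), where 26.4% and 33.9% of all genes were called. The 1 in ALS was Ubqln4, which fell in SOD1 G93A mice, from 93.9, 102 and 108 CPM to 73.7, 85.6 and 74.2 CPM (log2 fold change -0.38, adjusted p = 0.016), a call lost without control library B or C or SOD1 G93A library C (adjusted p up to 0.076). Ubqln1, the ubiquilin of most tissues, had 277, 277 and 289 CPM in control and 240, 245 and 234 CPM in SOD1 G93A libraries, a log2 fold change of -0.23 (adjusted p = 0.053). The 1 that fell in old mice was Ddi2, a shuttle factor and protease (log2 fold change -0.13, adjusted p = 0.046), with 0.01 in SOD1 G93A mice (adjusted p = 0.95). That call of Ddi2 was lost in several alternatives, among them leaving out any of 8 libraries, with adjusted p-values up to 0.094.

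Pfn1 (ENSMUSG00000018293, chr11:70651850-70654644, minus strand) had the smallest adjusted p of the members in aging and rose in both comparisons. Young libraries had 88.7 to 104 CPM (median 96.4) and old libraries 111 to 130 CPM (median 121). All 8 old values lay above all 8 young values. The rise was 1.27-fold, from 96.3 ± 5.17 to 122 ± 6.50 CPM (SD, n = 8), with a log2 fold change of 0.34 ± 0.04 (SE), an adjusted p of 2.8e-06 and the smallest exact permutation p that 8 against 8 can give, 0.000155. Controls had 89.0, 79.1 and 83.9 CPM and SOD1 G93A libraries 154, 110 and 157 CPM. All SOD1 G93A values lay above the controls, with library B the lowest of them. The rise was 1.67-fold, from 84.0 ± 4.94 to 140 ± 26.2 CPM (SD, n = 3), with a log2 fold change of 0.74 ± 0.14 (SE) and an adjusted p of 0.0050. It was 0.65 to 0.89 when 1 library was left out, called each time.

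Pfn2, the profilin enriched in neurons, was called higher in neither comparison. In old mice its log2 fold change was 0.02 (adjusted p = 0.84), and in SOD1 G93A mice it fell, from 520, 516 and 503 CPM to 332, 435 and 355 CPM (log2 fold change -0.46 ± 0.11 SE, adjusted p = 0.015). The call of Pfn2 was lost when any 1 control library or SOD1 G93A library C was left out, with adjusted p-values up to 0.073. The FPKM ratio of Pfn1 to Pfn2, chosen after the values were seen, was 0.407 to 0.558 in young and 0.567 to 0.710 in old libraries, without overlap (exact permutation p = 0.000155, the smallest possible). It was 0.358 to 0.405 in control libraries and 1.05, 0.574 and 1.01 in SOD1 G93A libraries A, B and C (exact permutation p = 0.1, the smallest possible). In libraries A and C the Pfn1 level per length was thus above that of Pfn2. In SOD1 G93A mice library B, with the least microglial and the most neuronal marker RNA, had the lowest ratio of the 3. Old library F, with the least microglial and the most neuronal marker RNA of its group, had the highest ratio of the old libraries, 0.710. The part of cell makeup in this ratio was not tested.

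Of 22 genes of profilins and actin turnover, 7 rose and none fell in old mice (median 0.12), and 11 rose and 3 fell in SOD1 G93A mice (median 0.29). For all genes tested the called shares were 26.4% in aging and 33.9% in ALS. Beta-actin, Actb, rose by 0.30 in old mice (adjusted p = 0.00015) and from 871, 715 and 776 CPM to 1273, 1162 and 1333 CPM in SOD1 G93A mice (log2 fold change 0.67, adjusted p = 0.0027). Thymosin beta 4, Tmsb4x, which sequesters actin monomers, rose by 0.28 and 1.45 (adjusted p = 0.0046 and 0.00039). Cofilin 1, Cfl1, which severs filaments, rose by 0.21 in old mice (adjusted p = 0.0016) and had a value of 0.27 in SOD1 G93A mice (adjusted p = 0.057). The Arp2/3 subunit Arpc5 rose by 0.90 in SOD1 G93A mice (adjusted p = 0.0022) and had a value of 0.13 in old mice (adjusted p = 0.080). The highest value of the list in both comparisons was that of Was, a blood cell actin regulator named after its values were seen, which rose by 0.87 and 2.41 (adjusted p = 0.017 and 0.0066). The 3 that fell in SOD1 G93A mice were Pfn2, Cap2 (-0.54, adjusted p = 0.011) and Wasl (-0.36, adjusted p = 0.015).

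Kif5a (ENSMUSG00000074657, chr10:127225696-127263348, minus strand) fell in both comparisons. Young libraries had 1438 to 1726 CPM (median 1640) and old libraries 1064 to 1463 CPM (median 1282). Old library B, the highest of its group, lay inside the young range and the other old libraries below it. The fall was 19.9%, from 1594 ± 110 to 1277 ± 137 CPM (SD, n = 8), with a log2 fold change of -0.32 ± 0.06 (SE), an adjusted p of 0.00029 and an exact permutation p of 0.00062. Controls had 2143, 2277 and 2000 CPM and SOD1 G93A libraries 1075, 1508 and 1031 CPM. All SOD1 G93A values lay below all controls. The fall was 43.7%, from 2140 ± 139 to 1205 ± 264 CPM (SD, n = 3), with a log2 fold change of -0.83 ± 0.15 (SE) and an adjusted p of 0.0047. SOD1 G93A library B held the most neuronal marker RNA (5366 summed CPM) and the most Kif5a of the 3. Among the old libraries, F held the most neuronal marker RNA (8080 summed CPM), with 1243 CPM of Kif5a, below the group mean. Old library B held the most Kif5a (1463 CPM), with 6160 summed CPM of neuronal markers, the next to lowest sum. The part of neuronal cell share in the level of Kif5a was not tested.

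The other kinesin-1 heavy chains fell with Kif5a. Kif5b, the chain made in most cell types, fell by 0.34 in old mice (adjusted p = 2.4e-05), without overlap, and from 809, 851 and 809 CPM to 609, 609 and 544 CPM in SOD1 G93A mice (log2 fold change -0.49, adjusted p = 0.0051). Kif5c, a neuronal chain, fell by 0.20 in old mice (adjusted p = 0.00027) and from 882, 958 and 891 CPM to 432, 627 and 442 CPM in SOD1 G93A mice (log2 fold change -0.86, adjusted p = 0.0035). Per length, Kif5a made up 44.7 to 50.6% of the FPKM of the 3 chains in young and 42.0 to 51.0% in old libraries (exact permutation p = 0.72), and 54.3 to 56.4% in control and 50.8 to 55.4% in SOD1 G93A libraries (exact permutation p = 0.2, where 0.1 is the smallest possible). The means of that share were 47.2 ± 1.86% and 46.8 ± 3.34% (SD, n = 8), and 55.6 ± 1.12% and 52.5 ± 2.45% (SD, n = 3). Of 15 genes of kinesin-1 chains and cargo adaptors, 1 rose and 4 fell in old mice (median -0.04), and 1 rose and 9 fell in SOD1 G93A mice (median -0.33). In aging 26.4% of all genes tested were called, and in ALS 33.9%. The scaffold Kidins220 fell by 0.30 in old mice (adjusted p = 0.00014) and had a value of -0.33 in SOD1 G93A mice (adjusted p = 0.072). The 1 gene that rose, in both, was the light chain Klc3, named after its values were seen, by 1.17 and 1.67 (adjusted p = 0.00093 and 0.020), while the light chains Klc1 and Klc2 fell by 0.53 and 0.74 in SOD1 G93A mice (adjusted p = 0.0060 and 0.0052).

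**Figure D3:**
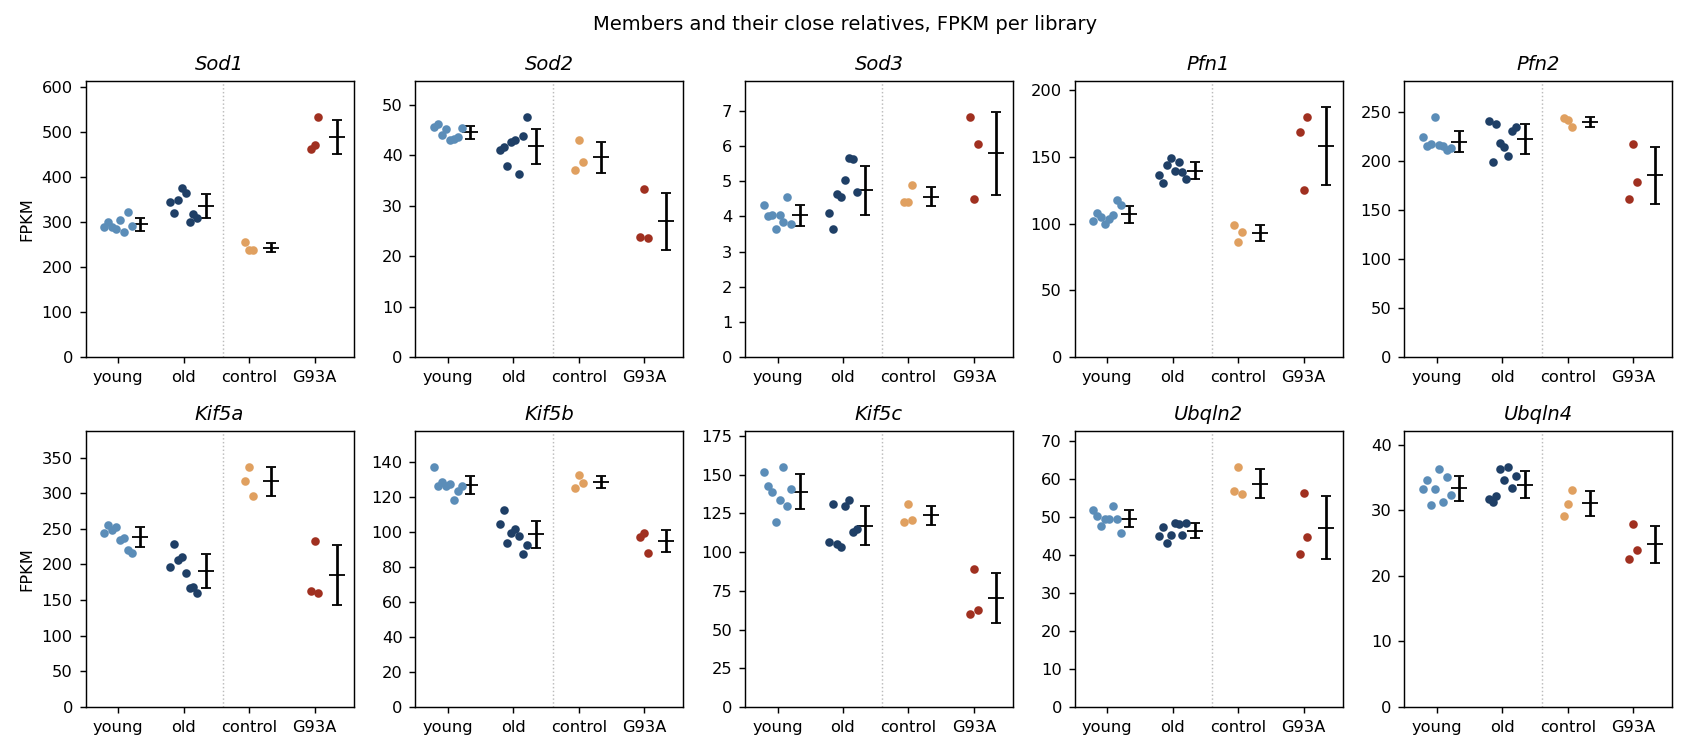
FPKM (vertical axes, from 0) of Sod1, Pfn1, Kif5a, Ubqln2 and their close relatives in every library, with the mean and SD of each group as bars and the dotted line between the experiments. Pfn1 is higher in old and SOD1 G93A mice while Pfn2 is lower in SOD1 G93A mice, and Kif5a, Kif5b and Kif5c are lower in both.

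**Figure D4:**
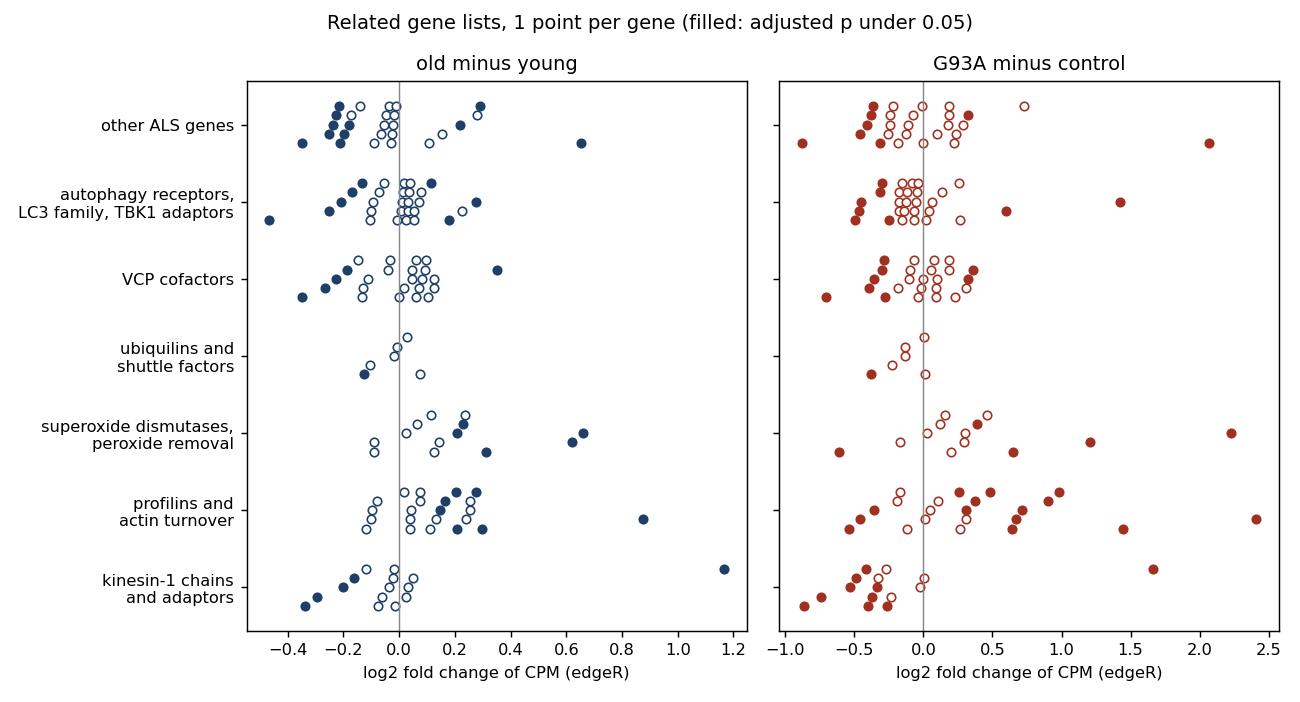
Log2 fold change of CPM (horizontal axes, of different range) for each gene of the 7 related lists, as 1 point a gene, in old minus young (left) and SOD1 G93A minus control (right). Filled points have an adjusted p under 0.05. Called actin turnover genes lie to the right of 0 in old mice, and 9 of 10 called kinesin-1 genes lie to the left of 0 in SOD1 G93A mice.

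Whether a member changed by different amounts in SOD1 G93A and in old mice was tested as an interaction in 1 fit of all 22 libraries, as the change in ALS minus the change in aging. It was called for 4 of the 9 members, where 25.8% of the 14502 genes tested were called. The difference was 0.74 ± 0.08 (SE) for Sod1 (adjusted p = 3.1e-06), whose value in SOD1 G93A mice may hold transgene reads, 0.37 ± 0.11 for Pfn1 (adjusted p = 0.016), -0.54 ± 0.14 for Kif5a (adjusted p = 0.0056) and -0.31 ± 0.11 for Ubqln2 (adjusted p = 0.036). For Pfn1 and Kif5a the change in SOD1 G93A mice was the larger of 2 changes in the same direction. The difference was not called for Tardbp, at 0.16 with an interval of 0.00 to 0.31 (adjusted p = 0.13), nor for Sqstm1, at -0.07 with an interval of -0.25 to 0.11 (adjusted p = 0.63), so the call of each in aging alone is not shown to be particular to aging. It was not called for Optn, Tbk1 and Vcp (adjusted p = 0.98, 0.17 and 0.93). The calls of Pfn1 and Ubqln2 were lost without control library B, without SOD1 G93A library A and without SOD1 G93A library C. The experiments differ in kit and sex as well, which cannot be told apart from each other, although each change was taken within its own experiment.

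Levels of different genes were compared per length, in FPKM, within each experiment. In young mice Sod1 and Sqstm1 stood highest, at 295 ± 13.8 and 292 ± 12.4 FPKM (SD, n = 8), with overlapping ranges, followed by Kif5a at 238 ± 14.4. Pfn1 (107 ± 6.20) and Vcp (104 ± 6.46) came next and did not differ beyond their ranges, then Tardbp (60.7 ± 8.59) and Ubqln2 (49.6 ± 2.21), which also overlapped, and last Tbk1 (17.1 ± 1.96) and Optn (11.5 ± 1.25). In old mice Sqstm1 (356 ± 16.2) and Sod1 (336 ± 26.7) still overlapped, Pfn1 (140 ± 6.25) stood clear of Vcp (103 ± 10.4), and Tbk1 (17.0 ± 2.57) overlapped with Optn (12.4 ± 1.99). In control mice Kif5a was the highest at 317 ± 20.3 FPKM (SD, n = 3), clear of Sod1 (244 ± 9.82) and Sqstm1 (232 ± 9.11), which overlapped. In SOD1 G93A mice Sod1 (490 ± 38.5), whose value may hold transgene reads, stood highest, clear of Sqstm1 (293 ± 29.4). There Kif5a (185 ± 41.9) overlapped with Pfn1 (158 ± 29.1). Optn was the lowest and Tbk1 the next lowest in all 4 groups. Spread between mice differed among members: in old mice the coefficient of variation of CPM ran from 4.14% for Tardbp to 13.6% for Optn, and in SOD1 G93A mice from 1.52% for Vcp to 21.9% for Kif5a.

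The genes whose log2 CPM, centred on the group means, was most like that of each member over the 22 libraries are given as a description, since all values share library, depth and cell makeup. They were chosen by their correlation (r) over the 22 libraries, so r within the aging or the ALS libraries is not a separate test. For Sqstm1 they were Rab29 (r = 0.94), a small GTPase of the lysosome, and Ftl1 (r = 0.91), the ferritin light chain, which has near-identical copies in the genome, and r was 0.93 and 0.90 within the 16 aging libraries and 0.97 and 0.97 within the 6 ALS libraries. Both rose in old mice, by 0.59 and 0.99 (adjusted p = 0.0019 and 5.9e-08), and in SOD1 G93A mice, by 2.32 and 2.05 (adjusted p = 0.00038 and 0.00038). For Pfn1 they were the calpain small subunit Capns1 (r = 0.95) and metallothionein Mt3 (r = 0.87), and for Ubqln2 Srgap3 (r = 0.93) and Elmod1 (r = 0.92). For Kif5a they were the ryanodine receptor Ryr3 (r = 0.89) and the chromatin remodeller Chd3 (r = 0.88), which fell in both comparisons, by 0.40 and 0.71 for Ryr3 (adjusted p = 0.00041 and 0.018). In ALS the call of Ryr3 and that of Chd3 were each lost when some single libraries were left out, with adjusted p up to 0.084 and 0.056. The most alike genes of Vcp were Rps6ka4 and Cpxm1 (r = 0.86 and 0.85), of Tbk1 Stxbp5l and Purb (r = 0.86 and 0.81) and of Sod1 Rrp7a and Nenf (r = 0.81 and 0.78). For Tardbp (Crocc and Rab27a, r = 0.78 and 0.77) and Optn (Mocs1 and Polq, r = 0.72 and 0.71) the likeness was lower, and with Crocc, Mocs1 and Polq it was 0.20 to 0.27 within the 6 ALS libraries. Among the members, chosen after the values were seen, Sqstm1 and Ubqln2 varied in opposite directions within groups (r = -0.78 over the 22, -0.71 within the aging and -0.95 within the ALS libraries), with old library F and SOD1 G93A library B low in Sqstm1 and high in Ubqln2 in their groups.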

How the data were processed

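RNA was measured in whole spinal cord from 22 mice. The authors aligned the reads to mm10 with STAR, counted Ensembl genes with RSEM and deposited RSEM expected counts, without scaling between libraries, and log2 values of FPKM plus 1. Expected counts were rounded to whole numbers, filtered with filterByExpr (minimum count 10, minimum total 15), scaled by TMM and tested in each comparison on its own with edgeR 4.0.16 (quasi-likelihood, Benjamini-Hochberg over all genes tested). FPKM values were recovered from the deposited log2 values and used for levels between genes and, with limma 3.58.1, as an alternative. DESeq2 1.42.0, other filters and scalings, 1 fit of all libraries and leaving out each library were tried too. Analyses ran in R 4.3.3 and Python 3.11.15. The edgeR step was tried on simulated counts whose planted changes were larger than those called for members in aging. That trial does not show how well changes of the smaller size are found. Gene positions came from GENCODE M21 (GRCm38) and promoters from RefSeq. Libraries were assigned to groups by column names. The 62 within-group pairs differed beyond sampling noise (smallest chi-square over its degrees of freedom 2.525). The p-values measure the spread between these mice. The members and gene lists were chosen with earlier results of these data known. Beside the members, the text names their close relatives, the 2 genes of each list with the smallest adjusted p in each comparison and the 2 genes most like each member, and others only where said. Cfap410 of the other ALS genes was not matched. The strand of counting is not given in the sources used here.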

Additional observations from a re-analysis of the deposited data

Results flagged for a closer look

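In 2 of the 18 groups of 8 mice examined, counting each member in young and in old mice once, 1 library stood apart from the other 7 by Dixon's test, and chance gives about 1 in 20. Both were old library F. Sqstm1 had 461 CPM there and 538 to 573 CPM in the other old libraries, and Ubqln2 had 190 CPM there and 154 to 171 CPM in the others. Old library F also held the lowest microglial and the highest neuronal marker sum of the old libraries, 507.8 and 8080 CPM. The part of this in the values of Sqstm1 and Ubqln2 was not tested.

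For 4 of the 9 members the change in SOD1 G93A mice differed from that in old mice in edgeR's test of the difference itself, on the log2 scale. Of all 14502 genes tested, 25.8% were called. The difference was 0.74 for Sod1 (adjusted p = 3.1e-06), -0.31 for Ubqln2 (adjusted p = 0.036), 0.37 for Pfn1 (adjusted p = 0.016) and -0.54 for Kif5a (adjusted p = 0.0056). For Sod1 the part of transgene reads was not tested. The calls of Pfn1 and Ubqln2 were lost when some single ALS libraries were left out. Kit and sex also differ between the experiments.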

How the results depend on the processing

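Every alternative of the edgeR fit and DESeq2 called the same 5 members in aging, other than leaving out old library F, which added Ubqln2. The limma fit of FPKM values called 4, losing Tardbp. Leaving out 1 library gave 5 to 6 called members in aging, 3 to 6 in ALS and 2 to 5 for the difference between them. Sod1, Pfn1 and Kif5a were called in every ALS fit that held them. Calls over all genes tested moved in the same fits. In ALS they were 1638 higher and 715 lower of 14528 without SOD1 G93A library C, and 3476 and 3172 of 14584 without library B. For the difference they were 1075 and 1306 of 14602 without library A, and 2211 and 2727 of 14636 without library B. In aging they were 1632 and 1477 of 13686 without old library D, and 2179 and 2200 of 13745 without F. With a log2 fold change beyond 1 required in the main fit, 0 members were called in aging and 0 in ALS. Kif5a passed that threshold in ALS without SOD1 G93A library B, at -1.02, and Sod1 in the limma fit of FPKM values. One fit of all 22 libraries added Tbk1 in ALS (adjusted p = 0.033), and the limma fit of FPKM values called Sqstm1 in place of Ubqln2. Leaving Sod1 out before scaling kept the calls of Ubqln2, Pfn1 and Kif5a. Genes of the related lists called in ALS were 22 to 77 when 1 library was left out, against 54, and in aging 26 in the limma fit of FPKM values, against 42.

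Signs turned only in values that were not called. With at least 10 counts in every library, Tardbp in ALS was 0.0028 and Vcp in ALS 0.011. In the limma fits of FPKM values with pseudocounts of 1 and 0.1, Tardbp in ALS was 0.15 in both, Vcp in ALS 0.061 in both and Ubqln4 in aging 0.023 and 0.024. In the fit of all libraries Ddi2 in ALS was -0.019. With 1 library left out, Vcp ranged from -0.034 to 0.0079 in aging and from -0.029 to 0.018 in ALS, Tardbp in ALS from -0.036 to 0.029, Pfn2 in aging from -0.0037 to 0.046, Faf1 in aging from -0.019 to 0.036 and Ddi2 in ALS from -0.051 to 0.069. The difference between comparisons ranged from -0.0619 to 0.0475 for Optn and from -0.0406 to 0.00654 for Vcp. The causes were not tested. No paired analysis was possible because the table columns carry no replicate numbers. Without SOD1 G93A library B, Sod3, Ubqln1, Cfl1 and Kidins220 were also called in ALS. The fewest counts of any member in a library were 152 for Optn and 232 for Tbk1, on which counting error weighs most.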
